A study of Mus musculus with 20 samples.

Results

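Collagens and laminins are chains of the extracellular matrix, and they were followed here gene by gene over 20 one-colour arrays of mouse brain. A gene was a member when its symbol, taken from the RefSeq accession of its probe, was that of a collagen alpha chain (Col, a number, a, a number) or of a laminin alpha, beta or gamma chain (Lama, Lamb or Lamc with a number). The annotation holds 55 such genes and 54 of them, 43 collagens and 11 laminins, have a probe among the 20972 symbols on the array. Col12a1 has none. The rule uses no measured value.

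All 20 mice were C57BL/6J males, by the labels 6 to 7 weeks old, and all carried a Tet-binding protein driven by the GFAP promoter, which is active in astrocytes. The Tat+ mice also carried a transgene for the HIV-1 protein Tat behind a tetracycline-responsive promoter (TRE), and the Tat− mice did not. Every mouse, controls included, received doxycycline at 100 mg/kg for 7 days. Methamphetamine at 2 mg/kg (Meth) or saline (Sal) was given on 7 days, with 5 mice in each group. By genotype the groups are Tat−/Sal with Tat−/Meth, and Tat+/Sal with Tat+/Meth. There is no group without doxycycline, and Tat was induced from astrocytes rather than carried by virus. The labels name the left hemisphere of a perfused brain as the tissue, whereas the methods name the caudate putamen, older mice, and a period of abstinence ended by a Meth dose given to every mouse, the saline groups included. All 10 markers of the striatum fixed for the check were tested, with a mean log2 signal of 15.44 to 15.76 per array, and 7 of 8 markers of the cortex were, at 7.72 to 9.11.

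Collagens are trimers of alpha chains. Types I, III and V build fibrils, and in the brain these lie mostly in the meninges and around larger vessels. Type IV collagen and the laminins, which are crosses of an alpha, a beta and a gamma chain, build the basement membrane beneath endothelium, around pericytes and under the end feet of astrocytes. In bulk tissue a lower signal from fewer cells of a type and one from less RNA per cell cannot be told apart, which holds for each result below.

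The type IV chains come as gene pairs that are transcribed away from a shared stretch of DNA, so their start sites are shown first. In RefSeq (GRCm38.p6) Col4a1 and Col4a2 lie on opposite strands of chromosome 8, and their annotated starts, at 11312826 and 11312805, are 21 bases apart. The 30 bases on the strand of Col4a2 at chr8:11312785-11312814 lie inside Col4a1 and span the start of Col4a2. Capitals, which lie before that start, mark CCCTCCCC, a pyrimidine-rich run of the kind known in this promoter as a CTC box.
Col4a2 start: cgctgccCCCTCCCCtcggcagtgcgcggg
Col4a5 and Col4a6 form another such pair on chromosome X, with 1342 bases between the annotated starts. The 250 bases before each start are at chrX:141475169-141475418 on the plus strand and chrX:141474077-141474326 on the minus strand.
Col4a5 upstream: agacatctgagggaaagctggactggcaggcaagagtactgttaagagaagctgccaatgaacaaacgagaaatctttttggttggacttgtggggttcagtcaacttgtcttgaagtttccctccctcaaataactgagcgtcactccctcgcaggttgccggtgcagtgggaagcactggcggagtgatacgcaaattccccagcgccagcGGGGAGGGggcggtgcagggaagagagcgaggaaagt
Col4a6 upstream: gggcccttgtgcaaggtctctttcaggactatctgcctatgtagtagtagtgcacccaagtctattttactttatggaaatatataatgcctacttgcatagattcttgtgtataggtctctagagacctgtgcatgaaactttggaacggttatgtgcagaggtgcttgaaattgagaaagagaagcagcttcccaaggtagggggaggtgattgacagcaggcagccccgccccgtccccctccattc
The stretch before Col4a5 holds the same run on its other strand, GGGGAGGG, and that before Col4a6 holds neither. Over windows from 250 bases before to 50 bases after a start, and on both strands, the run is in 3539 of 32851 RefSeq windows (10.8%) and in 12 of the 44 windows of 40 members (27.3%). The 11 members with a match are Col1a2, Col4a1, Col4a2, Col4a5, Col6a1, Col6a2, Col8a1, Col11a2, Col13a1, Col23a1 and Lama5. The windows of Col4a1 and Col4a2 overlap, and the run marked above lies in both. Since the run is one known from the promoter of these members, the shares are no test of enrichment. A match of letters is a description of the sequence and was not tested as a site. No other motif was searched.

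Signals below are background-subtracted intensities on the log2 scale with the 75th percentile of every array set equal, and a difference of 1 unit is a 2-fold change. The brightest probe stood for its gene. Genes whose mean was 6 or more in any group entered the fit, which left 15102 genes and 41 members (30 collagens, 11 laminins). On each array 55.3 to 70.9% of the probes were well above background. Slide 1 carried the 5 Tat−/Meth arrays and no others. Slide 2 carried Tat−/Sal with Tat+/Meth replicates 1 to 3, and slide 3 carried Tat+/Sal with Tat+/Meth replicates 4 and 5. The bright corner control spots, which owe nothing to the mouse, had log2 signals of 14.66 to 15.06 on slide 1, whereas those of slides 2 and 3 ran from 16.80 to 17.42. In each comparison with Tat−/Meth the slide therefore cannot be told apart from the effect compared, Meth in Tat−/Meth vs. Tat−/Sal and Tat in Tat+/Meth vs. Tat−/Meth. Tat−/Sal and Tat+/Sal also lie on different slides.

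Detection came first. All 11 laminins were well above background on all 20 arrays, as were 24 of the 43 collagens. Col10a1, a chain of growth plate cartilage, and Col4a3, a chain of the kidney basement membrane, were well above background on no array, and the other 17 collagens were on some. Each array detected 39 to 47 of the 54 members. The 13 members that were not tested are Col4a3, Col5a2, Col6a6, Col8a1, Col9a3, Col10a1, Col13a1, Col15a1, Col17a1, Col19a1, Col22a1, Col24a1 and Col28a1. Col13a1, a transmembrane collagen, was detected on 2 arrays, Tat−/Meth 5 at 7.27 and Tat+/Meth 4 at 7.87, and lay between 2.08 and 3.54 on the other 18. Col15a1, a multiplexin of vessel and muscle basement membranes, was on its brightest probe detected on Tat−/Meth 5 alone, at 7.02, and lay between 2.76 and 4.53 elsewhere. Another of its 3 probes was well above background on 1 array, also of Tat−/Meth, and was highest on Tat−/Meth 1 (6.08).

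Tat−/Meth 5 also had the highest Col28a1 (6.41) and the highest share of probes well above background (70.9%, against 56.4 to 60.2% on the other 4 Tat−/Meth arrays). It was highest as well for Col10a1 (4.67), Col4a3 (5.40) and Col24a1 (5.91), which were not well above background there. The same held for dimmer probes of Col14a1 (8.11) and Col23a1 (7.99). Not every weak gene followed, since Col19a1 was at 4.20 there. High values of weak probes on this array were thus not particular to the genes named. The part of this array in the results was measured by leaving it out.

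The spread within groups differed between families. Over the tested laminins the standard deviation within groups was 0.11 to 0.26, with a median of 0.19. Over the tested collagens it was 0.12 to 0.996, with a median of 0.31. The families were not matched in signal. Some collagens, such as Col3a1 (0.76) and Col9a1 (0.68), had lower group means than any tested laminin, and the part of signal in the spread was not tested. By chain, Lama5 was the steadiest laminin, at 9.69 to 10.09 over all 20 arrays. Lama5 is the alpha chain of mature vessel laminin. Lamc1, the gamma chain of most laminins, lay between 11.40 and 11.85. Col4a6 had the widest spread of the tested members, from 7.90 to 12.44.

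Tat−/Meth vs. Tat−/Sal addresses the effect of Meth without Tat. Lamc3 (a laminin gamma chain found in cortex, retina and the basement membrane at the brain's surface) and Col4a2 fell, Col4a1 and Col5a3 rose, and most members did not pass. Lamc3, Col4a2, Col4a1 and Col5a3, like Lamb1 and Lamb2 below, have 1 probe each. For these genes no other probe could be set beside the change. Of the 41 tested members 5 rose, 5 fell and 31 did not pass an adjusted p under 0.05 (limma, Benjamini-Hochberg over all 15102 genes). Among all genes tested 35% rose and 15.3% fell at this limit. With a change above 2-fold as well, only Col9a1 was called, against 6.85% of all genes. The groups did not overlap for 7 members (17.1%), against 36.2% of all genes. The median log2 fold change was 0.09 over the members and 0.14 over all genes, and each change below is to be read against the latter. Without scaling the median over all genes was −0.29, and the split of members that rose and fell was 0 and 20. With median scaling it was 6 and 2, and with quantile normalization 10 and 5.

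Lamc3 had signals of 7.32, 7.11, 7.31, 7.48 and 7.72 in Tat−/Meth, 8.16, 8.22, 8.48, 8.34 and 8.40 in Tat−/Sal, 8.30, 8.47, 8.44, 8.18 and 8.40 in Tat+/Meth, and 8.27, 8.87, 8.38, 8.21 and 8.31 in Tat+/Sal. All 5 Tat−/Meth arrays were below the other 15. The log2 fold change was −0.93 (SE 0.12, limma adjusted p = 4.34e-06), the smallest p of any member, and it passed under all 32 alternatives, between −1.35 and −0.67. It was just short of 2-fold and was called without Tat−/Meth replicate 5 (−1.02). Lamc3 lies outside the rule for named genes and was chosen after its values were seen, as were Col4a4, Col4a5, Col8a2, Col9a2, Col13a1 and Lamb3.

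**Figure D1:**
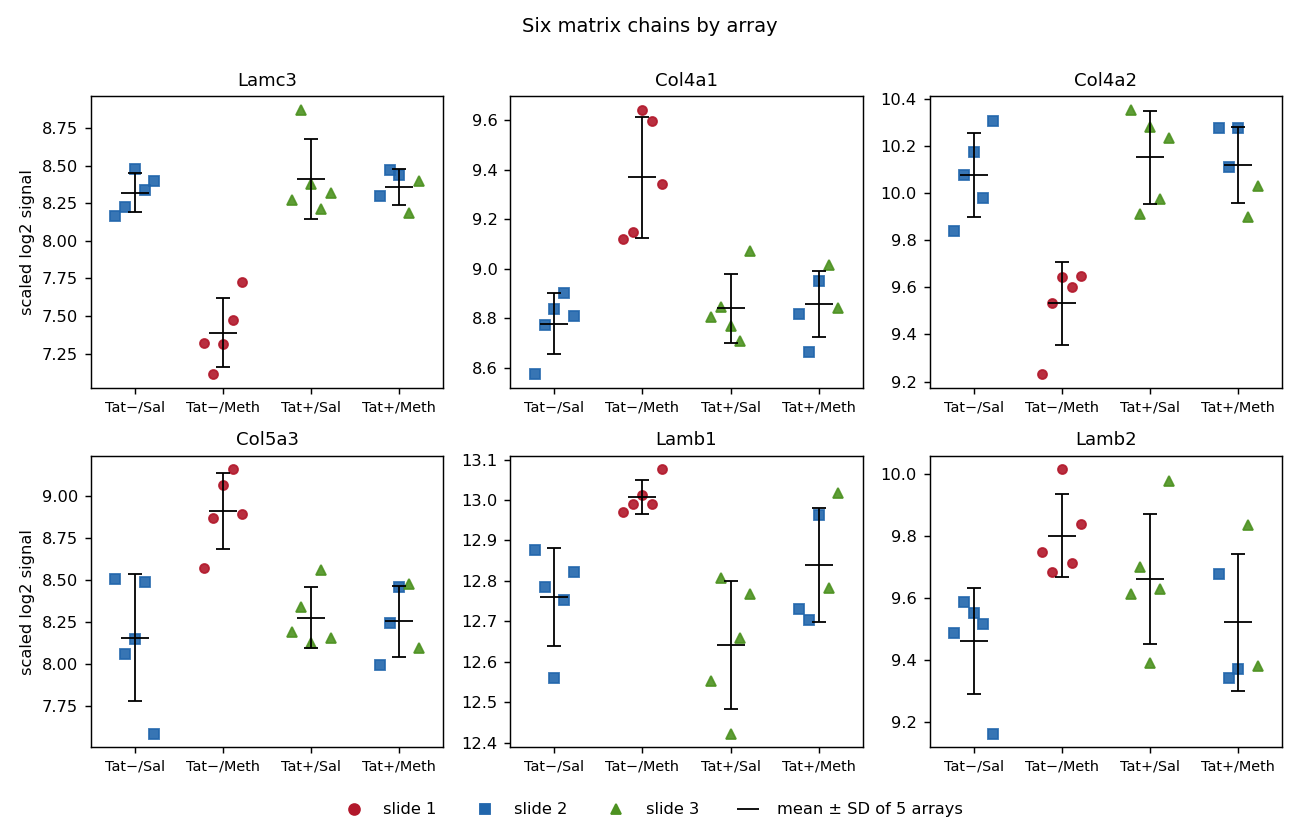
Scaled log2 signal (y axis) of 6 chains on each of the 20 arrays in the 4 groups (x axis). Points are arrays, colour and shape give the slide, and bars are the mean ± SD of 5 arrays. In Tat−/Meth, which is slide 1, Lamc3 and Col4a2 lie below all other arrays and Col4a1 and Col5a3 above all other arrays.

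Col4a1 and Col4a2, the 2 chains of the most common type IV trimer, moved apart. Col4a1 was at 9.12, 9.15, 9.64, 9.60 and 9.34 in Tat−/Meth and at 8.57, 8.77, 8.84, 8.90 and 8.81 in Tat−/Sal. Col4a2 was at 9.23, 9.53, 9.64, 9.60 and 9.65 in Tat−/Meth and at 9.84, 10.08, 10.17, 9.98 and 10.31 in Tat−/Sal. Neither gene's groups overlapped, with all 5 Tat−/Meth arrays above for Col4a1 and below for Col4a2. The log2 fold change of Col4a1 was 0.59 (SE 0.10, limma adjusted p = 0.000134) and that of Col4a2 was −0.54 (SE 0.11, limma adjusted p = 0.000484). Without scaling Col4a1 was at 0.17 (adjusted p = 0.334), and with median scaling Col4a2 was at −0.42 (adjusted p = 0.0627), so that the size of each change depends on the scaling.

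Scaling does not affect the difference of both genes within an array, a measure chosen after their values were seen. Since the probes differ in brightness, its size in a group has no meaning of its own and its change between groups does. Col4a1 less Col4a2 was −0.39 to −0.00029 on the 5 Tat−/Meth arrays and −1.50 to −1.08 in Tat−/Sal. The Tat+/Meth arrays ran from −1.46 to −0.88 and the Tat+/Sal arrays from −1.55 to −1.07. Tat−/Meth thus stood above all other arrays. The change from Tat−/Sal was 1.13 (SE 0.10, exact two-sided permutation p = 0.00794, the smallest of 252 splits, and 0.0198 after adjustment over 5 comparisons), and it was 1.03 to 1.19 under every alternative run. Since neither gene's groups overlapped and the genes moved in opposite directions, this p could only be the smallest. It adds nothing to the values of the single genes. Between the other 3 groups the change was −0.014 to 0.050, with an exact permutation p of 0.738 to 0.881.

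**Figure D2:**
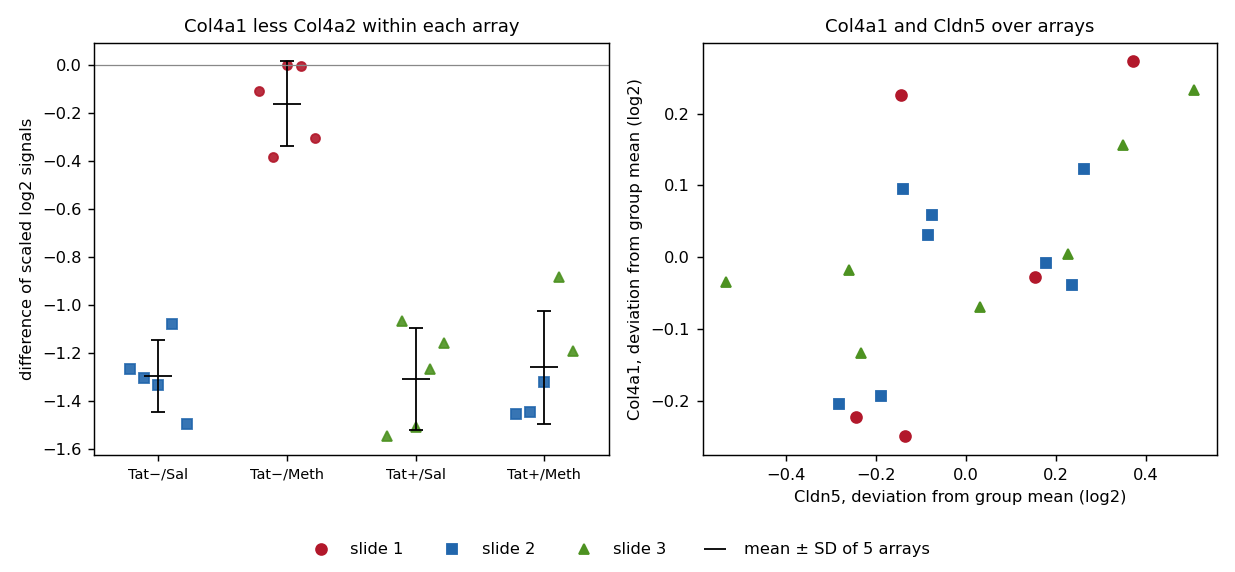
Left, Col4a1 less Col4a2 within each array (y axis, log2) by group (x axis), with bars at the mean ± SD of 5 arrays and colour and shape for the slide. Right, the deviation of Col4a1 (y axis) against that of Cldn5 (x axis) from their group means, both in log2, over the 20 arrays. On the left the Tat−/Meth arrays lie at −0.39 or above and all other arrays at −0.88 or below.

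The rest of the type IV genes were less steady. Col4a4, a chain of the kidney trimer, was at 6.30, 7.27, 6.21, 6.24 and 7.19 in Tat−/Meth and between 6.96 and 7.29 in Tat−/Sal. Replicates 2 and 5 of Tat−/Meth lay within the Tat−/Sal range, and the other 3 below it. The fold change was −0.50 (SE 0.19, limma adjusted p = 0.0352) and did not pass without Tat−/Meth replicates 1, 3 or 4 or without Tat−/Sal replicates 1, 3, 4 or 5, each left out singly (adjusted p = 0.0541 to 0.102), nor with median scaling, the series table or the 2 groups fitted alone (adjusted p = 0.113, 0.0832 and 0.0854). Col4a5, the partner of Col4a6 in smooth muscle and other basement membranes, was at 6.69 to 7.24 in Tat−/Meth and at 6.48 to 7.08 in Tat−/Sal, and these overlapped.

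Col4a6 had signals of 8.01, 7.90, 8.06, 7.90 and 8.83 in Tat−/Meth and 10.04, 9.11, 9.26, 9.45 and 9.25 in Tat−/Sal. The groups did not overlap, and the log2 fold change of −1.28 (SE 0.59) had a limma adjusted p of 0.0775. The SE is shared by all groups and took in 3 arrays of the Tat+ groups at 11.46 to 12.44. A dimmer probe of Col4a6, read on its own after the values were seen, went the other way, at 5.83, 5.51, 6.47, 5.86 and 6.51 in Tat−/Meth and 5.53, 5.45, 5.36, 5.57 and 4.59 in Tat−/Sal (0.74, limma adjusted p = 0.00951 over all probes). It was well above background on 12 of 20 arrays. No direction can be given for Col4a6 as a gene.

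The fibrillar collagens held 2 genes that rose and none that fell, of 9 tested, beside 35% and 15.3% of all genes. Col5a3, a minor chain that regulates fibril width, was at 8.57, 8.87, 9.07, 9.16 and 8.89 in Tat−/Meth and at 8.51, 8.06, 8.15, 8.49 and 7.59 in Tat−/Sal. All Tat−/Meth arrays lay above all Tat−/Sal arrays. Its log2 fold change was 0.75 (SE 0.16, limma adjusted p = 0.000633), and without scaling it was 0.33 (adjusted p = 0.186). Col5a1, the main type V chain, was at 5.95, 6.18, 6.33, 6.41 and 7.38 against 5.99, 5.95, 5.76, 6.04 and 5.20, which overlap, with a fold change of 0.66 (SE 0.23, limma adjusted p = 0.0218). This did not pass without Tat−/Meth replicate 5 (0.43, adjusted p = 0.0597) or without Tat−/Sal replicate 5 (0.52, adjusted p = 0.0686).

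The chains that make up most fibrils of the meninges did not pass. Col1a2 was at 10.25, 10.03, 10.27, 10.37 and 10.54 in Tat−/Meth and at 10.20, 10.66, 9.91, 10.67 and 10.34 in Tat−/Sal. Col1a1 was at 7.89, 7.69, 8.15, 7.71 and 8.26 and at 7.63, 8.11, 7.37, 8.10 and 7.96. Both sets overlap, and the log2 differences were −0.07 (95% interval −0.34 to 0.21) and 0.11 (95% interval −0.25 to 0.47). Col3a1, the type III chain, was well above background on 16 arrays and had its highest value, 8.13, on Tat+/Sal replicate 5, with the other 19 at 4.92 to 6.95. Its log2 difference was 0.17 with a 95% interval of −0.78 to 1.12.

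**Figure D3:**
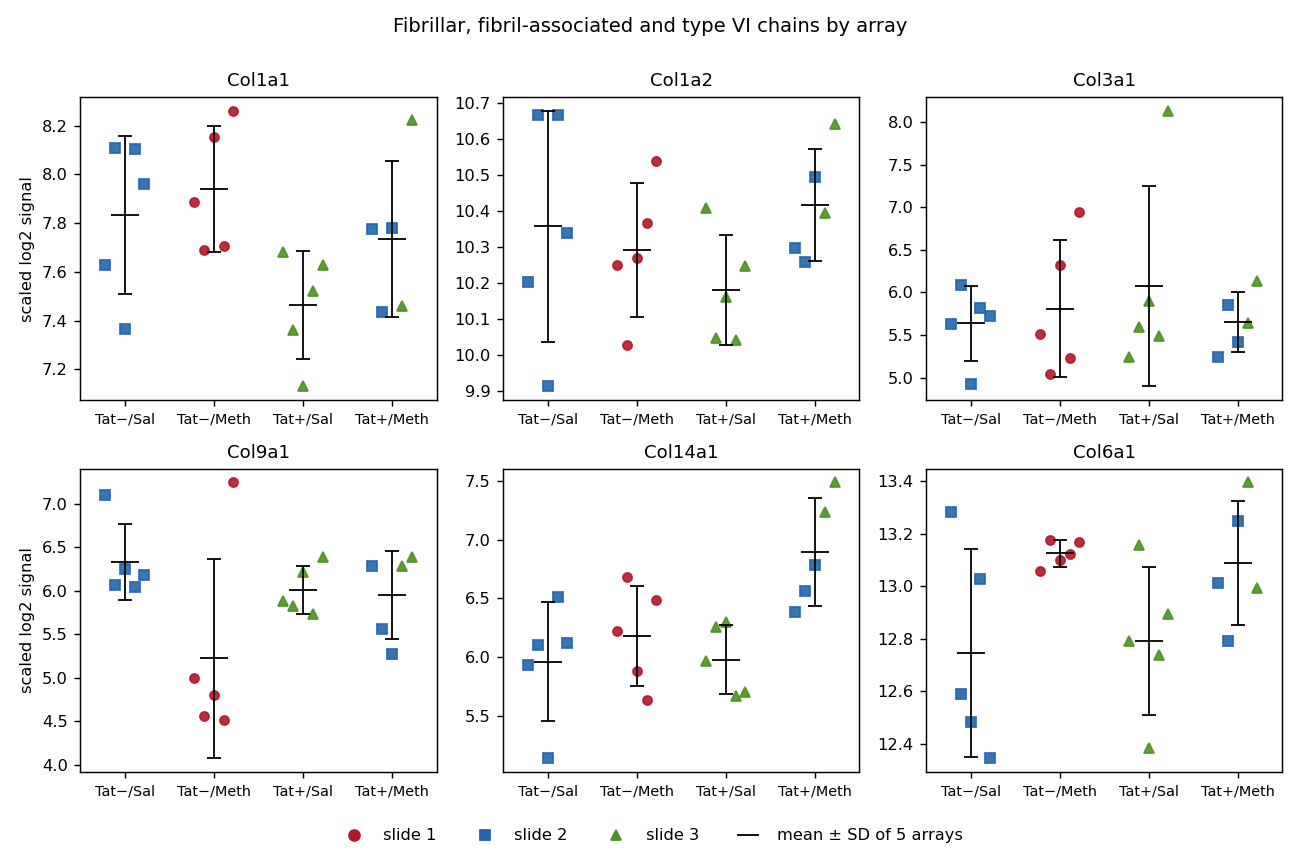
Scaled log2 signal (y axis) of Col1a1, Col1a2, Col3a1, Col9a1, Col14a1 and Col6a1 on the 20 arrays by group (x axis). Points are arrays with colour and shape for the slide, and bars are the mean ± SD of 5 arrays. Col9a1 has 4 Tat−/Meth arrays at 4.51 to 5.00 and 1 at 7.24, and Col3a1 has 1 Tat+/Sal array at 8.13.

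Among the fibril-associated collagens Col9a1, a cartilage and inner ear chain that coats type II fibrils, was the only member called. It was at 5.00, 4.56, 4.80, 4.51 and 7.24 in Tat−/Meth and at 7.10, 6.07, 6.25, 6.04 and 6.18 in Tat−/Sal. Replicate 5 of Tat−/Meth was above every Tat−/Sal array and the other 4 were below them. The log2 fold change was −1.10 (SE 0.40, limma adjusted p = 0.0286), on a probe well above background on 2 of 5 Tat−/Meth and 5 of 5 Tat−/Sal arrays. The call was lost without Tat−/Meth replicate 1, 2, 3 or 4 or Tat−/Sal replicate 1 (−1.05 to −0.91, adjusted p = 0.0581 to 0.0792), and quantile normalization and median scaling brought the change below 2-fold. It was lost as well with the methods' t-test (adjusted p = 0.131), with the 2 groups fitted alone (adjusted p = 0.0840), with the series table (−0.74, adjusted p = 0.0721) and with normexp (−0.30, adjusted p = 0.0974). The dimmer probe of Col9a1, well above background on 6 arrays and not tested, had means of 5.32 in Tat−/Meth and 4.81 in Tat−/Sal, the other way round. Col9a2, the alpha 2 chain of the same trimer, had 9.95 to 10.13 against 9.75 to 10.02 (0.18, limma adjusted p = 0.0565). Col14a1 and Col16a1 did not pass.

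None of the 6 tested beaded filament and related collagens passed, where 35% of all genes rose and 15.3% fell. Col6a1, a chain of the type VI microfibrils around vessels and nerve sheaths, was at 13.06, 13.18, 13.10, 13.12 and 13.17 in Tat−/Meth and at 13.28, 12.59, 12.48, 13.03 and 12.34 in Tat−/Sal. The Tat−/Meth arrays lay close together inside the wide Tat−/Sal range, and the log2 difference was 0.38 (SE 0.16, limma adjusted p = 0.0603). Col6a2 and Col6a3, the chains it assembles with, differed by −0.05 and −0.31.

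Col18a1, a multiplexin of vessel basement membranes whose tail is endostatin, was at 8.07, 7.87, 8.16, 7.67 and 7.996 in Tat−/Meth and at 8.59, 8.12, 8.45, 8.31 and 8.13 in Tat−/Sal. Replicate 3 of Tat−/Meth was within the Tat−/Sal range and the other 4 were below it. The log2 fold change was −0.37 (SE 0.10, limma adjusted p = 0.00522). A dimmer probe, well above background on all 20 arrays, gave 0.25 (limma adjusted p = 0.171 over all probes), and the mean of both gave −0.06 (adjusted p = 0.668). Col25a1, a transmembrane collagen first found in amyloid plaques, has 4 probes, of which the brightest gave 0.42 (limma adjusted p = 0.122), others gave 0.47 (limma adjusted p = 0.0217), 0.62 (limma adjusted p = 0.228) and −0.73 (limma adjusted p = 0.0251). Col8a2, a network chain of the cornea, had 0.52 on its brighter probe (limma adjusted p = 0.0803). Its dimmer probe went the other way, at 3.80 to 4.89 in Tat−/Meth and at 6.06 to 6.45 in Tat−/Sal. It was not well above background on any of the 5 Tat−/Meth arrays and was on all 5 of Tat−/Sal. For these genes the direction depends on the probe.

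**Figure D4:**
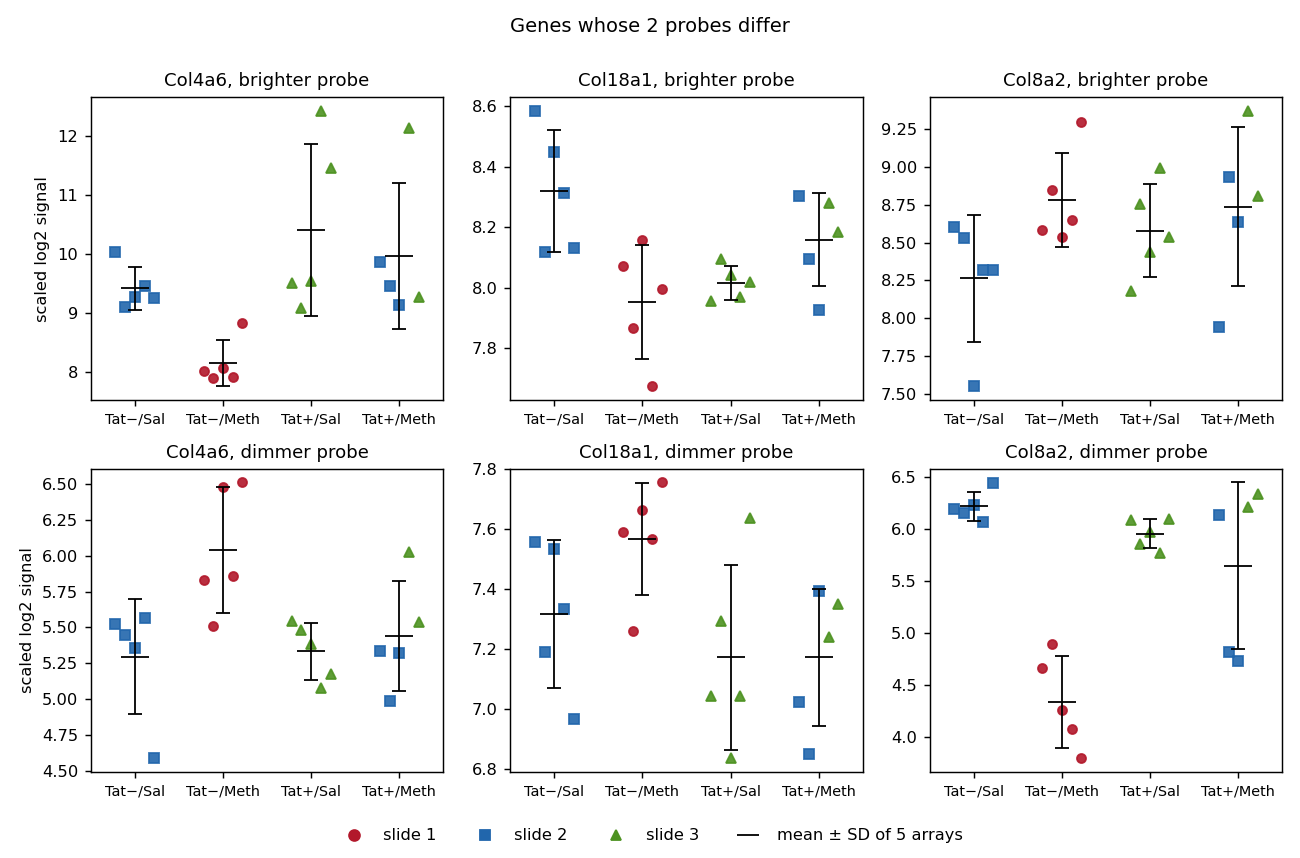
Scaled log2 signal (y axis) of the brighter (top) and dimmer (bottom) probe of Col4a6, Col18a1 and Col8a2 on the 20 arrays by group (x axis). Points are arrays with colour and shape for the slide, and bars are the mean ± SD of 5 arrays. From Tat−/Sal to Tat−/Meth the mean of the brighter probe moves one way and that of the dimmer probe the other for each gene.

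Of the laminin beta chains 2 of 3 rose, where 35% of all genes rose and 15.3% fell. Lamb1, the beta chain of laminins made by astrocytes and endothelium, was at 12.97, 12.99, 13.01, 12.99 and 13.08 in Tat−/Meth and at 12.88, 12.79, 12.56, 12.75 and 12.82 in Tat−/Sal. Lamb2, the beta chain of laminins at the vessel wall and synapse, was at 9.75, 9.68, 10.02, 9.72 and 9.84 and at 9.49, 9.59, 9.55, 9.52 and 9.16. Neither overlapped, and the log2 fold changes were 0.25 (SE 0.08, limma adjusted p = 0.0144) and 0.34 (SE 0.11, limma adjusted p = 0.0199). Without scaling both turned, to −0.17 and −0.08. Lamb1 did not pass with quantile normalization, median scaling or normexp background correction either (adjusted p = 0.0507, 0.103 and 0.0926). Lamb2 did not pass with median scaling (0.46, adjusted p = 0.0588). It also did not pass without Tat−/Meth replicate 3 (0.29, adjusted p = 0.0580) or Tat−/Sal replicate 5 (0.26, adjusted p = 0.0635). Lamb3, the beta chain of epithelial laminin, was at 9.06 to 9.36 in Tat−/Meth and at 9.16 to 9.98 in Tat−/Sal (−0.31, limma adjusted p = 0.0947). None of the 5 alpha chains passed. Lama2, the alpha chain of laminin in pericyte and astrocyte basement membranes, came nearest, at 10.09, 9.58, 9.96, 10.02 and 9.80 against 9.43, 9.53, 9.79, 9.53 and 9.69, and its 2 probes gave 0.29 and 0.24. Lama4 and Lama5, the endothelial alpha chains, differed by 0.33 and −0.01, and Lamc1 by 0.09.

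**Figure D5:**
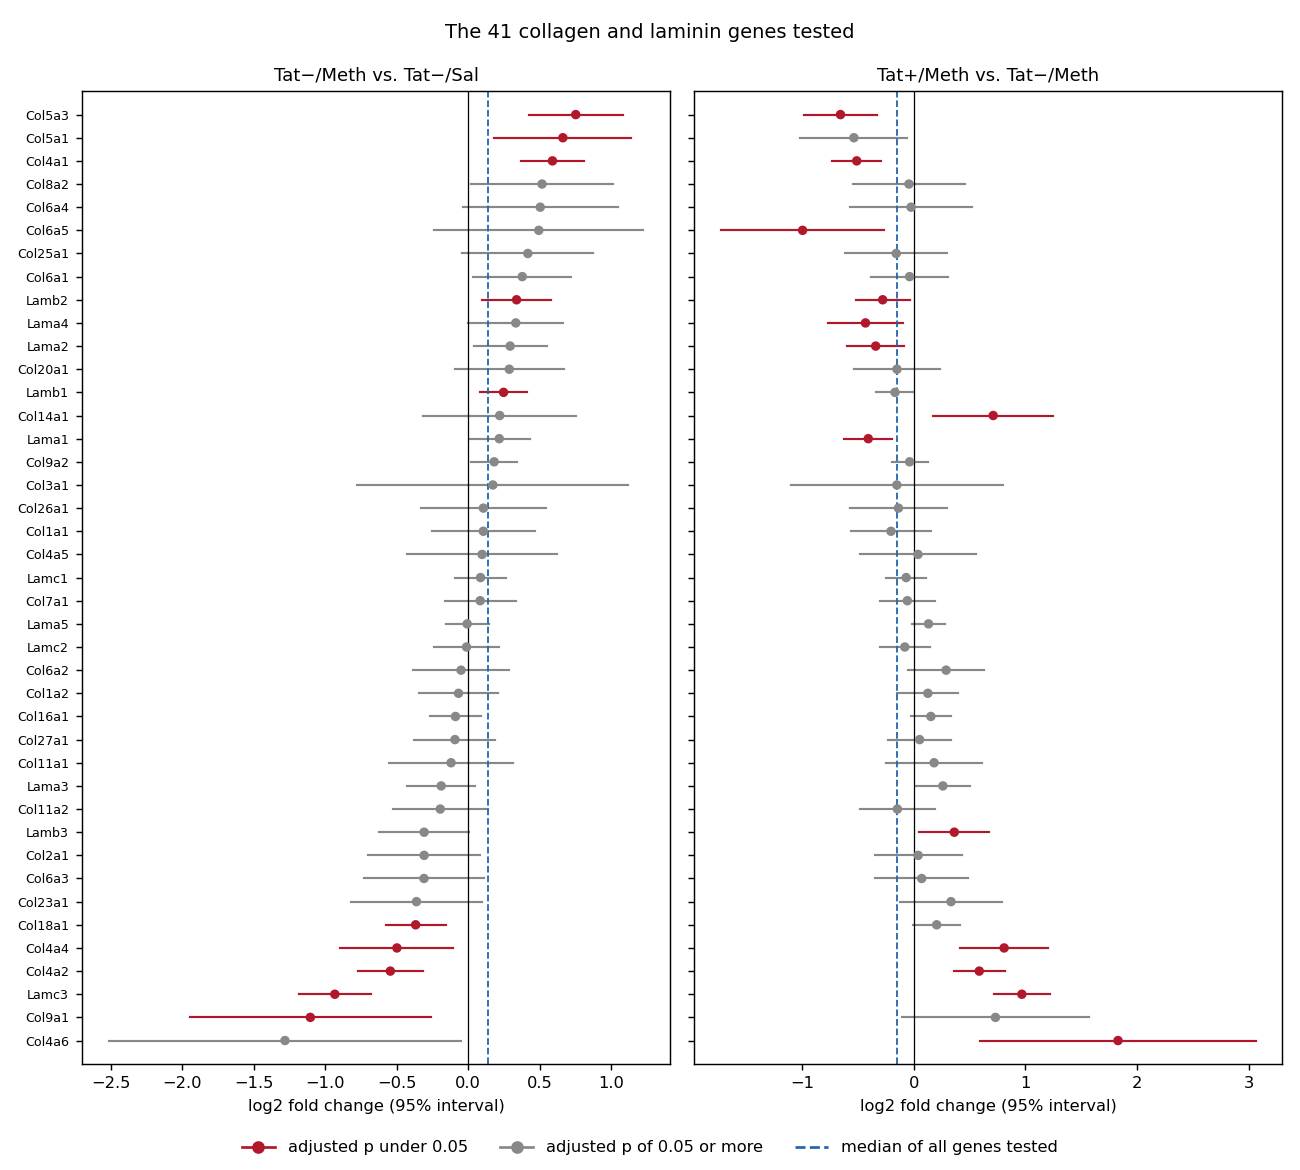
Log2 fold change (x axis, point, with its 95% interval as a line) of the 41 tested members (y axis) in Tat−/Meth vs. Tat−/Sal (left) and Tat+/Meth vs. Tat−/Meth (right). Red marks an adjusted p under 0.05, and the dashed line is the median of all 15102 genes, at 0.14 and −0.15. On the left 5 members are red to each side of 0, and on the right 6 are red above 0 and 7 below.

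The partners and enzymes of the matrix come from lists chosen with earlier results of these data known. Of 22 tested genes for collagen biosynthesis 7 rose and 4 fell, beside 35% and 15.3% of all genes. All 4 that fell were called, which makes 4 of the 22 tested, beside 6.85% of all genes tested that were called in either direction. They are Bmp1, which cuts the end of fibrillar procollagens (−4.28, SE 0.22, limma adjusted p = 4.29e-11), Adamts14, which cuts the other end (−1.89), P4ha3, a proline 4-hydroxylase (−1.83), and P3h1, a proline 3-hydroxylase (−1.01), and their groups did not overlap. P4hb, the shared subunit of the 4-hydroxylases, rose by 0.40, and Plod3, a lysyl hydroxylase, by 0.31. Of 11 receptors Itga3, Itgb1, Dag1 and Ddr1 rose (0.31 to 0.85) and Itga1, the alpha chain of a collagen integrin, fell (−1.67, SE 0.33, limma adjusted p = 0.000351). Bmp1 has 3 probes, and Adamts14, P4ha3, P3h1 and Itga1 have 2 each. Their values here are those of the brightest probe alone. Whether the dimmer probes of these genes moved the same way was not tested. Of 10 proteases and inhibitors Adamts4, Mmp15 and Timp3 rose (0.41 to 0.48) and Mmp24 fell (−0.34). Of 5 basement membrane partners Nid1, which links laminin to type IV collagen, rose (0.26, limma adjusted p = 0.0262). Over the 3 larger lists the medians were 0.04, 0.22 and 0.27, beside 0.14 over all genes.

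Markers of the cells that make these chains were set beside them. The counts of markers are to be read against the 35% of all genes that rose and the 15.3% that fell in Tat−/Meth vs. Tat−/Sal. The mean of the 14 tested meningeal fibroblast markers was 8.22 to 8.50 on the Tat−/Meth arrays and 8.37 to 9.03 on those of Tat−/Sal. The Tat+/Meth arrays ran from 8.16 to 8.60 and the Tat+/Sal arrays from 8.13 to 8.92. Of these markers 2 fell in Tat−/Meth (Crabp2 with −1.46, Foxc2 with −1.08) and none rose, and Twist1 was well above background on no array. All 12 endothelial markers were tested, with a mean of 9.93 to 10.54 over the 20 arrays, and Flt1, Ly6c1 and Slc2a1 rose (0.36 to 0.55). Of 11 mural markers Cspg4 rose (0.28) and Tagln fell (−1.15). The 6 astrocyte markers had a mean of 12.19 to 12.48 in Tat−/Meth and 11.72 to 11.98 in the other groups, and 4 of them rose. The choroid plexus markers tested, 7 of 9, had means of 7.88 to 9.36 in Tat−/Meth and 7.50 to 9.19 in Tat−/Sal. All 7 differences were above 0, with a median of 0.36, and Sostdc1 passed (0.69). In Tat+/Meth vs. Tat−/Meth, described below, 5 of 6 astrocyte markers fell (median −0.31), 3 of 12 endothelial markers fell, and 2 of 14 meningeal and 1 of 11 mural markers moved to each side. Of all genes 38.5% fell and 16% rose in that comparison. All 7 choroid plexus differences were below 0 there, with a median of −0.44, and Aqp1 (−1.26) and Sostdc1 (−1.25) fell. The part of these cells in the changes of the chains was not tested.

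Array by array within groups, 3 relations were computed over 20 arrays from deviations from the group means. Col1a2 went with neither meningeal marker: r was 0.091 with Dcn (permutation p = 0.671, adjusted 0.671, rho 0.009, permutation p = 0.973) and 0.122 with Igf2 (permutation p = 0.555, adjusted 0.671, rho 0.081, permutation p = 0.716). Without the 2 arrays farthest in the marker these were 0.028 and −0.045. Col4a1 and Cldn5, the tight junction gene of endothelium, had r = 0.596 (permutation p = 0.00859, adjusted 0.0258) and rho = 0.614 (permutation p = 0.00746, adjusted 0.0224). Taken from means of group and slide r was 0.595 (permutation p = 0.00968). Without Tat+/Sal replicate 5 and Tat−/Meth replicate 3 r was 0.389 (permutation p = 0.0902, adjusted 0.271), so the relation did not pass without those 2 arrays. They were the arrays whose Cldn5 signal lay farthest from its median over all 20. By deviation from the group mean Tat+/Sal replicate 1 (−0.53) lay farthest, and it was kept.

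The comparison of Tat+/Meth with Tat−/Meth addresses Tat in mice given Meth. It shares the Tat−/Meth arrays, and so slide 1, with the comparison above, and the values are given side by side for that reason only. Of the 41 members 6 rose, 7 fell and 28 did not pass, against 16% and 38.5% of all genes. Only Col4a6 was called, against 7.22%. The groups did not overlap for 6 members (14.6%), against 38% of all genes, and the median was −0.04 over the members and −0.15 over all genes. Without scaling the median over all genes was 0.19, with 16 members higher and 0 lower, and with quantile normalization the split was 4 and 8. With median scaling it was 4 and 7.

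Lamc3 rose by 0.97 (SE 0.12, limma adjusted p = 2.41e-06) and Col4a2 by 0.59 (SE 0.11, limma adjusted p = 0.000205), both under all 32 alternatives. Col4a2 was at 10.27, 10.11, 10.27, 9.90 and 10.03 in Tat+/Meth, above all Tat−/Meth arrays. Col4a1 was at 8.82, 8.66, 8.95, 9.01 and 8.84, below all of them, and fell by 0.51 on the log2 scale (SE 0.10, limma adjusted p = 0.000441). Col4a1 less Col4a2 within arrays changed by −1.10 (SE 0.13, exact two-sided permutation p = 0.00794, adjusted 0.0198), where this p was again fixed by the separation of both genes. Col5a3 was at 7.998, 8.25, 8.46, 8.48 and 8.10, below all Tat−/Meth arrays (−0.66, SE 0.16, limma adjusted p = 0.00171). Without scaling Col4a1 was at −0.17 (adjusted p = 0.362) and Col5a3 at −0.32 (adjusted p = 0.240).

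Col4a6, the member called, was at 9.86, 9.45, 9.13, 12.14 and 9.27 in Tat+/Meth, all above Tat−/Meth, with replicate 4 far above the rest. The log2 fold change was 1.83 (SE 0.59, limma adjusted p = 0.0136). Its dimmer probe gave −0.59 (limma adjusted p = 0.0289 over all probes), and the mean of both gave 0.62 (adjusted p = 0.129). Col4a4 was at 7.41, 7.46, 7.72, 7.47 and 7.18 and rose by 0.81 (SE 0.19, limma adjusted p = 0.00145). Its groups overlapped by replicates 2 and 5 of Tat−/Meth.

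The alpha laminins were lower in Tat+/Meth for 3 of 5 chains, beside 38.5% of all genes. Lama1, an alpha chain of the meningeal basement membrane, was at 8.62, 8.49, 8.45, 8.49 and 8.75 in Tat+/Meth and at 8.75, 9.04, 9.19, 9.09 and 8.78 in Tat−/Meth, touching at 8.75 (−0.41, SE 0.10, limma adjusted p = 0.00255). Lama2 fell by 0.34 (limma adjusted p = 0.0243) and its other probe by 0.33 (limma adjusted p = 0.00387). It did not pass without Tat+/Meth replicate 3 or Tat−/Meth replicates 1 or 4 (−0.31 to −0.25, adjusted p = 0.0574 to 0.0792). Lama4 fell by 0.43 (limma adjusted p = 0.0275), and did not pass without Tat+/Meth replicate 2 or Tat−/Meth replicates 3 or 5 (adjusted p = 0.0749 to 0.0781). Without scaling these 3 were at −0.07, −0.0033 and −0.09.

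Lamb2 fell by 0.28 (limma adjusted p = 0.0477) and Lamb3 rose by 0.36 (limma adjusted p = 0.0475). Without scaling Lamb2 turned to 0.06, and with median scaling it was at −0.44 and did not pass (adjusted p = 0.0580). Lamb2 did not pass when any of 14 arrays was left out, namely Tat−/Meth 1, 3, 4 and 5, Tat−/Sal 1 to 4, Tat+/Meth 2, 3 and 5 and Tat+/Sal 1, 2 and 4 (adjusted p = 0.0520 to 0.124). For Lamb3 this held for 10 arrays, Tat−/Meth 1 to 4, Tat−/Sal 4, Tat+/Meth 1, 4 and 5 and Tat+/Sal 1 and 2 (adjusted p = 0.0522 to 0.110), and with median scaling it was at 0.20 (adjusted p = 0.381).

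Col6a5, a long alpha chain of type VI collagen, had 5.80, 7.24, 6.94, 6.87 and 6.96 in Tat+/Meth and 7.19, 8.83, 7.70, 7.41 and 7.66 in Tat−/Meth. It fell by 0.997 (SE 0.35, limma adjusted p = 0.0220), and without Tat+/Meth replicate 1 or Tat−/Meth replicate 2 the change was −0.76 or −0.73 and did not pass (adjusted p = 0.0724 and 0.0723). Col14a1, which coats type I fibrils, was at 6.39, 6.57, 6.79, 7.23 and 7.49 in Tat+/Meth and at 6.22, 6.68, 5.88, 5.64 and 6.49 in Tat−/Meth. It rose by 0.71 (SE 0.26, limma adjusted p = 0.0250), and did not pass without Tat+/Meth replicates 4 or 5 or Tat−/Meth replicates 3 or 4 (adjusted p = 0.0605 to 0.0756), nor with quantile normalization, median scaling or the mean over probes (adjusted p = 0.0687, 0.0753 and 0.255). A dimmer probe of Col14a1 was well above background on 8 arrays.

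The comparisons that do not use Tat−/Meth called no member. For Tat in mice given saline (Tat+/Sal vs. Tat−/Sal) 0 of 41 were called by limma, against 0.0199% of all genes, and 4 had an unadjusted p under 0.05, against 20.5%. They were Col18a1, Col1a1, Col9a2 and Lama1. All Tat−/Sal arrays were on slide 2 and all Tat+/Sal arrays on slide 3. With slide as a fixed block, which rests on the Tat+/Meth arrays of both slides, no member passed and the median over the members turned from 0.05 to −0.13. With slide as a random block, at an estimated correlation of −0.0623, Col18a1 (−0.28, adjusted p = 0.0260), Lama1 (−0.30, adjusted p = 0.0241) and Col9a2 (0.20, adjusted p = 0.0425) passed and none was called. Where each group lies on its own slide, a negative correlation lowers the SE and does not remove a difference between slides. Col18a1 was at 7.96, 8.09, 8.04, 7.97 and 8.02 in Tat+/Sal, below all 5 Tat−/Sal arrays, at −0.30 (SE 0.10, limma adjusted p = 0.103). It was the member whose groups did not overlap in this comparison, where 4.85% of all genes did not. Lama1 was at 8.70, 8.33, 8.36, 8.18 and 8.62 in Tat+/Sal and at 8.90, 8.77, 8.77, 8.67 and 8.65 in Tat−/Sal, overlapping at the edge (−0.31, limma adjusted p = 0.103). Col1a1 was at 7.68, 7.36, 7.13, 7.52 and 7.63 in Tat+/Sal (−0.37, limma adjusted p = 0.232).

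In Tat+/Meth vs. Tat+/Sal limma called 0 of 41 members and 0% of all genes, and 4 members had an unadjusted p under 0.05, against 12.2% of all genes. Col14a1 was at 5.96, 6.26, 6.29, 5.67 and 5.70 in Tat+/Sal, below all Tat+/Meth arrays, where 2.28% of all genes did not overlap. Its log2 fold change was 0.91 (SE 0.26, limma adjusted p = 0.219), and with slide as a fixed block it was 1.38 (adjusted p = 0.840). Col11a2, a fibrillar chain of cartilage that accompanies type II, was at 9.01, 8.77, 8.33, 8.75 and 7.97 in Tat+/Meth and at 9.23, 8.81, 9.11, 8.95 and 9.29 in Tat+/Sal (−0.51, limma adjusted p = 0.241). Col25a1 and Lamb1 were the others, at 0.47 and 0.20.

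In Tat+/Meth vs. Tat−/Sal 0 of 41 members and 0% of all genes were called by limma, and 3 members (Col14a1 at 0.93, Col6a1 at 0.34 and Col11a2 at −0.34) had an unadjusted p under 0.05, against 7.79% of all genes. No member's groups were apart, against 1.68% of all genes. In these 3 comparisons the 95% interval of Lamc3 was −0.30 to 0.34, that of Col4a1 −0.20 to 0.30 and that of Col4a2 −0.26 to 0.31, taking the lowest and the highest bound.

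The interaction, the effect of Meth in Tat+ less that in Tat− mice, was past an adjusted p of 0.05 for 8 members, 4 higher and 4 lower, against 12.4% and 23.6% of all genes. None was called with the 2-fold limit, against 7.44%. The higher ones were Lamc3 (0.88), Col4a4 (0.84), Col4a2 (0.51) and Col18a1 (0.51), and the lower ones Col5a1 (−0.87), Col5a3 (−0.77), Col4a1 (−0.57) and Lamb2 (−0.48). Without scaling none of the lower ones passed, with Col5a1 at −0.38, Col5a3 at −0.29, Col4a1 at −0.087 and Lamb2 at 0.0055 (adjusted p = 0.378, 0.442, 0.749 and 0.989). With median scaling Lamb2 (−0.71, adjusted p = 0.0569) and all of the higher ones did not pass, with Lamc3 at 0.65, Col4a4 at 0.61, Col4a2 at 0.28 and Col18a1 at 0.28 (adjusted p = 0.0547, 0.0927, 0.370 and 0.388). Col18a1 was lost too with quantile normalization, normexp and the mean over probes (adjusted p = 0.0615, 0.143 and 0.524), and its dimmer probe gave −0.25 (limma adjusted p = 0.377 over all probes). Col5a1 did not pass when 1 of 12 arrays was left out, Tat−/Meth 3 to 5, Tat−/Sal 3 and 5, Tat+/Meth 1, 3 and 5 or Tat+/Sal 1, 3, 4 and 5 (adjusted p = 0.0507 to 0.0825). Lamb2 did not pass without Tat−/Meth 3, Tat−/Sal 5, Tat+/Meth 2 or 3 or Tat+/Sal 5 (adjusted p = 0.0509 to 0.0538). The interaction also uses the arrays of slide 1.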

How the data were processed

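RNA from 20 mouse brains was hybridised to one-colour Agilent arrays, labelled with Cy3 per the labels, whereas the methods describe another dye and scanner. For each array the authors deposited the Feature Extraction output, whose processed intensity is already background-subtracted. The series table holds the authors' processed signal, deposited on a linear scale with array medians of 69.8 to 145, and was used as an alternative. For this 7831 of its values, which lay below 1, were set to 1 here before the log2 was taken. How the series table was centred is not given in the sources used here.

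Control spots (3671 of 62976 per array) and 4278 spots marked as outliers were left out. The log2 of each deposited intensity was scaled to the 75th percentile of its array. Of 55681 probes 27656 have a symbol through their RefSeq accession. Genes with a group mean of at least 6, and a value on at least 3 arrays in each group, entered 1 limma fit over all 4 groups (R 4.3.3, limma 3.58.1) with Benjamini-Hochberg adjustment. Figures, exact permutation tests and correlations used Python 3.11.15, numpy 2.4.6, pandas 2.3.3 and matplotlib 3.10.9. On simulated data 198 of 200 genes changed by a log2 of 2 in Tat−/Meth vs. Tat−/Sal were recovered among 15102. No tested member changed by as much in that comparison, so this does not give the recovery of changes of their size. The members and lists were chosen with earlier results of these data known. Named genes were members called in any comparison, the largest rise and fall in each, and Col1a1, Col1a2, Col3a1, Col4a1, Col4a2, Col6a1, Col11a2, Col15a1, Col18a1, Col25a1, Lama1, Lama2, Lama4, Lama5, Lamb1, Lamb2 and Lamc1. The alternatives were other scalings, background corrections, filters, probe rules, thresholds, blocks and single arrays left out. The number of arrays limits the precision.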

Additional observations from a re-analysis of the deposited data

Results flagged for a closer look

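Single arrays stood far from the other 4 of their group, by Dixon's ratio at the 95% level, in 11 of 104 groups of 26 members, where chance gives about 1 in 20. Tat−/Meth replicate 5 was such an array for Col15a1 (7.02), Col4a6 (8.83) and Col9a1 (7.24), all high, and replicate 1 of that group for Col4a2 (9.23), low. Tat−/Sal replicate 1 was high for Col9a1 (7.10) and replicate 5 low for Lamb2 (9.16). In Tat+/Meth, replicate 4 was high for Col4a6 (12.14) and replicate 1 low for Col6a5 (5.80). In Tat+/Sal, replicate 5 was high for Col3a1 (8.13), replicate 2 high for Lamc3 (8.87) and replicate 1 low for Col15a1 (2.76).

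The effect of Meth differed between Tat+ and Tat− mice, by the interaction in limma, for 8 members. Lamc3 had a difference of 0.88 (SE 0.17, limma adjusted p = 0.00056), Col4a4 of 0.84 (SE 0.27, limma adjusted p = 0.0195), Col4a2 of 0.51 (SE 0.15, limma adjusted p = 0.0151) and Col18a1 of 0.51 (SE 0.14, limma adjusted p = 0.0087). Col5a1 had −0.87 (SE 0.32, limma adjusted p = 0.0432), Col5a3 −0.77 (SE 0.22, limma adjusted p = 0.0107), Col4a1 −0.57 (SE 0.15, limma adjusted p = 0.00522) and Lamb2 −0.48 (SE 0.16, limma adjusted p = 0.0273). The Tat−/Meth arrays all lie on slide 1, so group and slide cannot be told apart in these values.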

How the results depend on the processing

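Of 971 alternative values of the 31 member changes past the threshold, 837 kept direction and side, 130 no longer passed and 4 reversed, all without scaling. The reversed ones were Lamb1 (−0.17) and Lamb2 (−0.0817) in Tat−/Meth vs. Tat−/Sal, Lamb2 (0.0594) in Tat+/Meth vs. Tat−/Meth and Lamb2 (0.0055) in the interaction. In Tat−/Meth vs. Tat−/Sal the count of called members, 1 as reported, was 0 with quantile normalization, median scaling, normexp background correction, the series table, the mean over probes, and an adjusted p under 0.01 with 3-fold. It was 2 without a filter, with slide as a random block or with every probe on its own, 3 without scaling, 10 without a fold limit, and 0 to 2 with 1 array left out. It was 0 without Tat−/Meth 1, 2, 3 or 4 or Tat−/Sal 1, and 2 without Tat−/Meth 5, Tat+/Meth 4 or Tat+/Sal 4. With the replicate number as a block it was 2 (Col4a6 and Col9a1). The numbers pair samples in name only, since over 30 same-numbered pairs the correlation of deviations was −0.18 to 0.36, with a median of 0.044. In Tat+/Meth vs. Tat−/Meth the count, 1 as reported, was 2 with quantile normalization, median scaling, slide as a random block or every probe on its own, 5 without scaling, 13 without a fold limit, 0 with the mean over probes or the stricter limits, and 1 to 4 with 1 array left out (4 without Tat−/Meth 5, 3 without Tat+/Meth 4). In the interaction the count, 0 as reported, was 1 with quantile normalization or every probe on its own, 2 with median scaling, 5 without scaling, 8 without a fold limit, and 0 to 1 with 1 array left out (1 without Tat−/Meth 5 or Tat+/Sal 2). The other comparisons stayed at 0 in all settings run. The relation of Col1a2 and Dcn over arrays within groups was −0.00786 with normexp and −0.025 to 0.207 with 1 array left out, that of Col1a2 and Igf2 −0.16 with quantile normalization, −0.11 with normexp, −0.045 without the farthest arrays and −0.064 to 0.301 with 1 left out, and that of Col4a1 and Cldn5 0.498 with normexp, 0.389 without the farthest arrays and 0.508 to 0.706 with 1 left out. The cause was not tested. Slide as a fixed block could not be fitted for the comparisons with Tat−/Meth. Every probe on its own was added after the data were seen.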
